A study of Homo sapiens with 12 samples.

Results

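The genes described here encode axon guidance ligands and their receptors: the semaphorins of classes 3 to 7 with the plexins and neuropilins, the slits with the ROBO receptors, the netrins, and the ephrins with the Eph receptors. They were chosen by a rule on the symbol that used no measured value, with earlier results of these data known. The rule found 64 of the 20289 genes in the count table (35 ligands and 29 receptors). Of these 64, 49 had counts high enough to be tested, 15 did not, and 1 of those 15 (EPHA8) had no count in any library. Poly(A) RNA of U251 cells, a long-established line from a human glioblastoma, was measured in 12 libraries of 4 groups with 3 libraries each. Knockdown temozolomide and knockdown DMSO cells carried a lentiviral short hairpin that targets CD44, a surface protein that binds hyaluronan. Control temozolomide and control DMSO cells carried a control hairpin. Temozolomide, a DNA-alkylating drug used against glioblastoma, was given at 50 µM for 24 h, and DMSO is its solvent. All 4 groups therefore shared lentiviral transduction and 24 h of drug or solvent. Whether libraries within a group came from separate cultures is not stated in the labels, so p-values reflect spread among these libraries, which may be technical. In bulk RNA, fewer cells expressing a gene and less RNA per cell cannot be told apart.

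Guidance cues were named for steering growing axons, and the same families act in cell migration, vessel growth and boundary formation. Class 3 semaphorins are secreted and bind neuropilins, which form a receptor with A-type plexins or PLXND1, while most membrane-bound semaphorins bind plexins directly. Plexins act on small GTPases and thereby on the cytoskeleton. Slits are secreted proteins that bind ROBO receptors and mostly repel, and netrins attract through DCC and repel through UNC5 receptors. Ephrins are tethered to the membrane, A-type by a lipid anchor and B-type by a transmembrane segment, and contact with Eph receptor tyrosine kinases on a neighbouring cell can signal into both cells. In glioma cells several of these families, Eph receptors and semaphorins among them, have been studied for their part in migration and invasion.

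CD44, the gene the hairpin targets, had 319.8, 326.4 and 333 CPM (counts relative to the library total, scaled by TMM factors) in knockdown temozolomide libraries, against 850.6, 807.7 and 804.1 CPM in control temozolomide libraries, and 420.9, 419.2 and 419.1 CPM in knockdown DMSO libraries, against 1127.1, 1102 and 1042.6 CPM in control DMSO libraries. The groups did not overlap, as the labels imply. Library totals ran from 13506900 to 24758000 estimated counts, and a floor of 3 counts is 0.12 to 0.215 CPM. VIM, an intermediate filament gene of mesenchymal and glial cells, averaged 1737.9 ± 51.9 FPKM (fragments per kilobase, scaled to library size; mean ± SD, n = 3) in control DMSO libraries, and SOX2, a neural progenitor factor, averaged 149.6 ± 2.28 FPKM there, whereas the astrocyte genes GFAP, at 0.497 ± 0.287 FPKM, and AQP4, at 0 FPKM, were low or at 0. The 5 oligodendrocyte markers summed to 0.05 to 0.38 FPKM per library, and of 7 immune markers only CD68 was tested. Of 8 neuron markers 4 were tested, and all 4 were higher in knockdown cells under both treatments, beside 22.0% of all genes under temozolomide and 21.1% under DMSO. Their median log2 fold change was 0.90 under temozolomide and 0.91 under DMSO. The summed FPKM of the 8 neuron markers was 28.1 to 29.1 in knockdown DMSO libraries, against 17.6 to 20 in control DMSO libraries. It was 34.4 to 37.9 in knockdown temozolomide libraries, against 23.7 to 25.7 in control temozolomide libraries. STMN2 and DCX of the same list averaged at most 0.0867 and 0.01 FPKM in any group. CD68, a lysosomal gene of macrophages, averaged 17.3 ± 0.957 FPKM in knockdown DMSO libraries, against 11.1 ± 2.08 FPKM in control DMSO libraries. PTPRC, which marks blood cells, averaged at most 0.16 FPKM in any group. Of 7 tested astroglial and progenitor markers 3 were higher and 1 lower in knockdown cells under each treatment, and of 3 tested endothelial markers 1 was higher and 1 lower. Over all genes 22.0% were higher and 20.3% lower under temozolomide, and 21.1% higher and 21.4% lower under DMSO. The part of these marker changes in the results below was not tested.

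NRP2, a coreceptor of class 3 semaphorins, had the highest level per length of the 64 genes. It averaged 60.8 ± 1.27 FPKM in knockdown temozolomide, 67.7 ± 7.19 in control temozolomide, 75.5 ± 2.13 in knockdown DMSO and 85 ± 4.1 in control DMSO libraries and had the highest mean in all 4 groups. In knockdown temozolomide libraries its range, 59.69 to 62.16 FPKM, overlapped that of NRP1, at 46.96 to 59.84 FPKM, so the order of these 2 was not clear there. In control DMSO libraries SEMA3C followed at 58.2 ± 0.702 FPKM, then PLXND1 at 48.1 ± 2.46, PLXNB2 at 45.8 ± 1.86, SEMA3A at 42.6 ± 2.97, NRP1 at 41.5 ± 2.28 and EPHA2 at 34.5 ± 1.51 FPKM. The ranges of PLXND1 and PLXNB2, of PLXNB2 and SEMA3A, and of SEMA3A and NRP1 overlapped between libraries, so these neighbours in the order do not differ beyond their spread. In knockdown DMSO libraries NRP1, at 65.8 ± 2.21 FPKM, stood second. A mean of at least 10 FPKM was reached by 18 genes in knockdown temozolomide, 15 in control temozolomide, 17 in knockdown DMSO and 16 in control DMSO libraries. The 10 highest genes made up 64.5% to 66.9% of the summed FPKM in each group.

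The 15 genes outside the test had 0 to 90 estimated counts each over all 12 libraries. They were the Eph receptors EPHA1, EPHA6, EPHA7, EPHA8, EPHA10, EPHB1 and EPHB6, the semaphorins SEMA3D, SEMA4A and SEMA5B, the ephrin EFNA2, the netrins NTN3 and NTN5, the slit SLIT1 and the plexin PLXNA4. PLXNA4, with 90 counts, and SLIT1, with 61, were the highest, and the most any of the 15 had in a single library was 12 counts. SLIT1 overlaps ARHGAP19-SLIT1, a gene of the count table, on the same strand, so its reads may be split. Of the 14 Eph receptor genes, 7 were thus at or near 0 in this line. DCC, the attractive netrin receptor, was likewise below the test, at 0.0567 ± 0.0451 FPKM in control DMSO libraries.

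**Figure D1:**
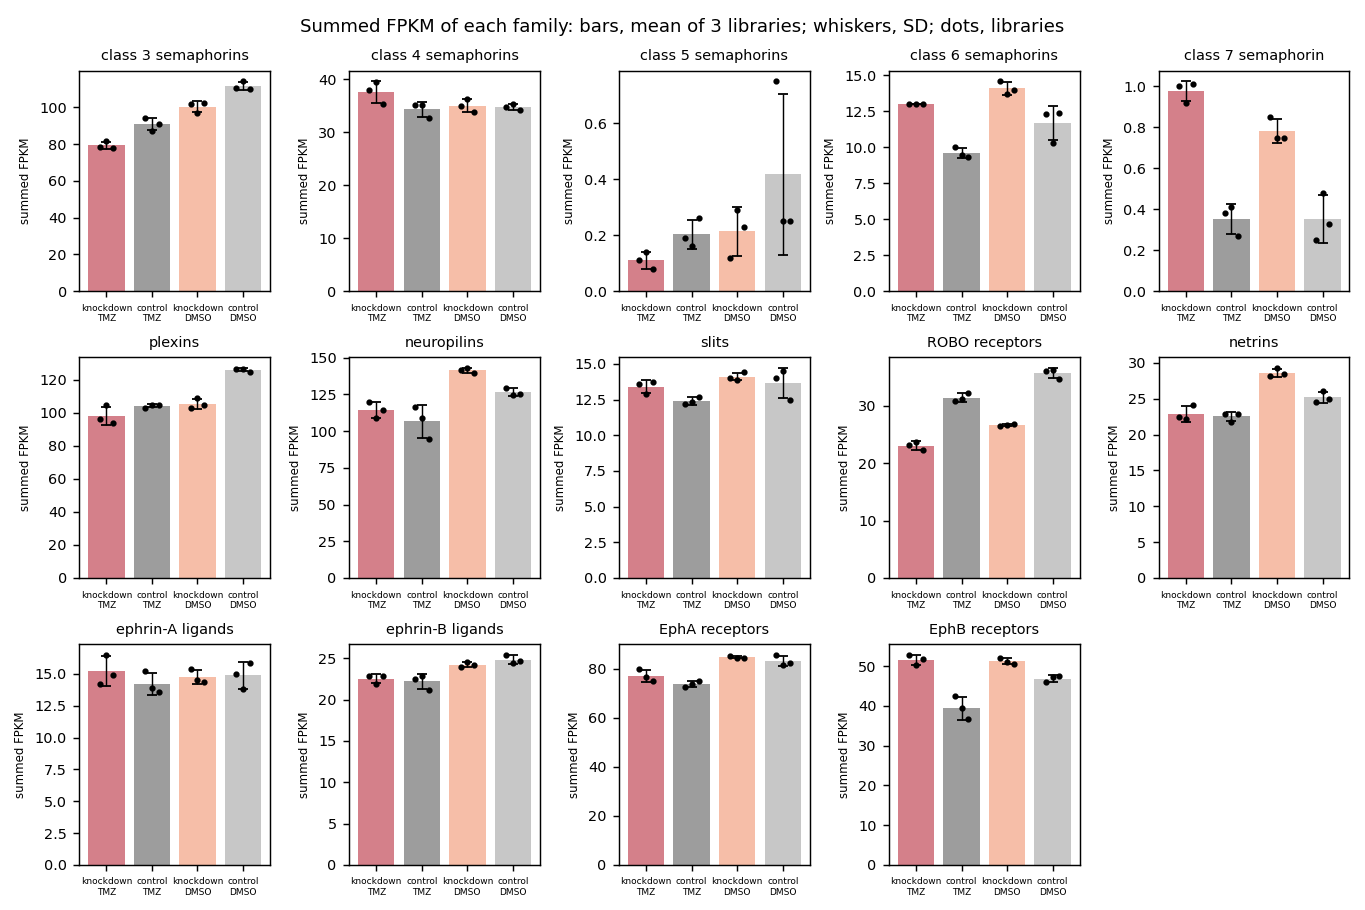
Summed FPKM of each family in the 4 groups; bars are means of 3 libraries, whiskers SD and dots libraries, and each vertical axis starts at 0. The ROBO receptor sum was lower in both knockdown groups, and the class 3 semaphorin sum was lowest in knockdown temozolomide libraries (79.3 ± 1.86 FPKM) and highest in control DMSO libraries (111.6 ± 2.32 FPKM).

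Summed per family, ROBO receptors came to 23.1 ± 0.717 FPKM in knockdown temozolomide libraries, against 31.5 ± 0.784 in control temozolomide libraries, and to 26.7 ± 0.18 in knockdown DMSO libraries, against 35.7 ± 0.889 in control DMSO libraries. EphB receptors came to 51.6 ± 1.25 FPKM in knockdown temozolomide libraries, against 39.5 ± 2.86 in control temozolomide libraries. The plexin sum was 105.6 ± 3.06 FPKM in knockdown DMSO libraries, against 126.2 ± 1.04 in control DMSO libraries. Over all 64 genes the sum was 569.4 ± 8.21 FPKM in knockdown temozolomide libraries, against 641.5 ± 3.09 in knockdown DMSO libraries, and 562.3 ± 15.4 in control temozolomide libraries, against 655.8 ± 5.96 in control DMSO libraries. The libraries with temozolomide lay below those with DMSO in both kinds of cell, without overlap. These sums are descriptions; with 3 libraries against 3 an exact permutation test cannot go below p = 0.1.

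The comparison of CD44 knockdown with control cells asks which guidance genes depend on the hairpin, and it was made once under temozolomide and once under DMSO, in libraries that the comparisons do not share. Under temozolomide 11 of the 49 tested genes were higher and 14 lower in knockdown cells at a Benjamini-Hochberg adjusted p below 0.05 over all 12821 tested genes. That is 51.0% of the tested members, beside a percent called of 42.3 over all genes, and for single directions 22.4% against 22.0 for higher and 28.6% against 20.3 for lower calls. Under DMSO 9 genes were higher and 15 lower, 49.0% of the tested members beside 42.6 over all genes, with 18.4% against 21.1 for higher and 30.6% against 21.4 for lower calls. The groups did not overlap for 28 of the 49 genes under each treatment, 57.1%, beside 50.8% of all genes under temozolomide and 51.3% under DMSO. For higher calls the share was near that of all genes, and for lower calls it was above, a difference that was not tested. The median log2 fold change was -0.01 under temozolomide and -0.07 under DMSO, beside 0.01 and -0.00 over all genes. Of the 11 genes called higher under temozolomide 9 were also called higher under DMSO, 81.8% of the first list and the whole of the second. Of the genes called lower, 11 were shared, 78.6% of the 14 under temozolomide and 73.3% of the 15 under DMSO, and 0 genes were called in opposite directions. The same overlap over all genes was not computed, so these shares are descriptions and do not set the guidance genes apart.

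**Figure D2:**
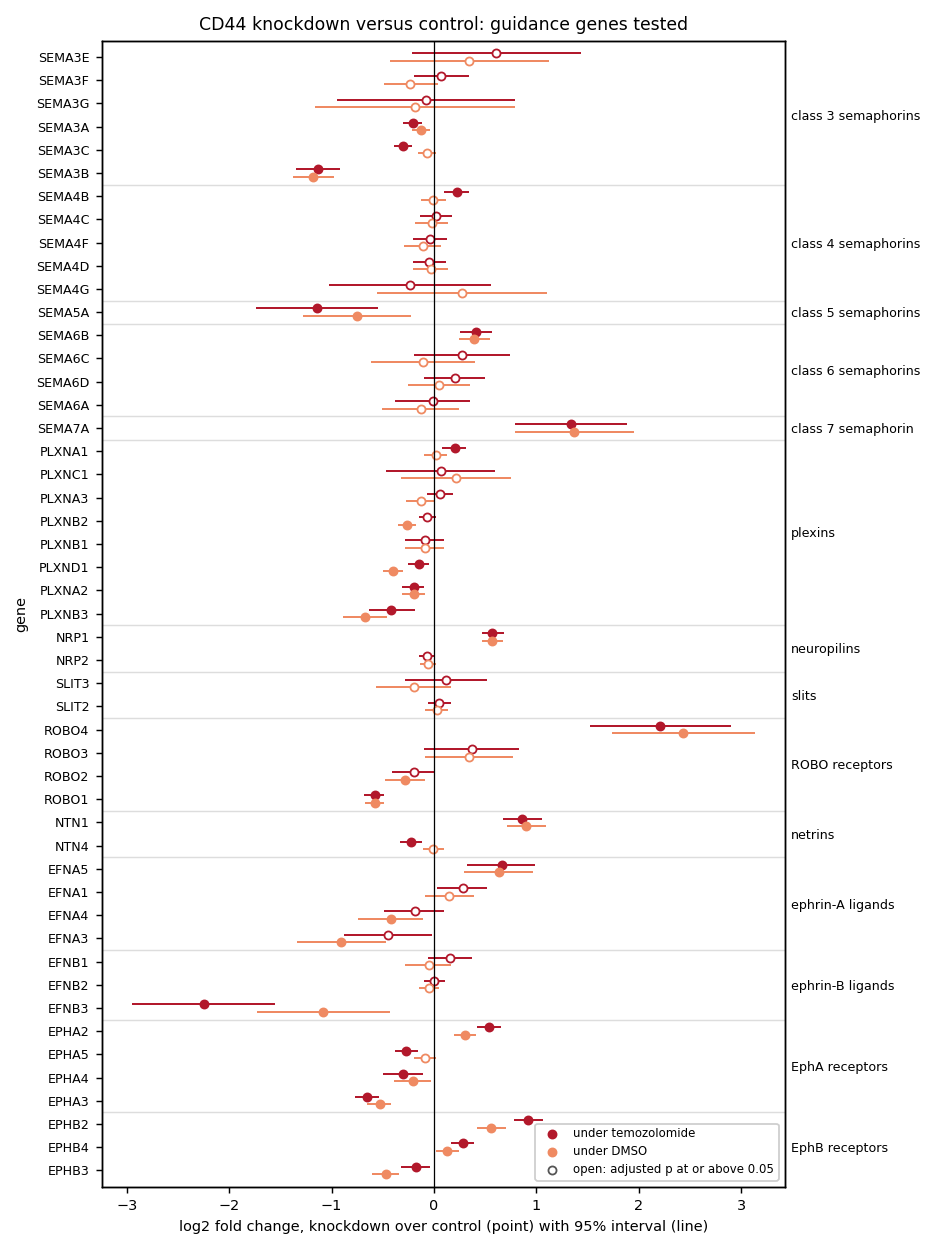
Log2 fold change of each tested guidance gene, knockdown over control, by family; points are estimates, lines 95% intervals, dark red under temozolomide and orange under DMSO, filled where the adjusted p is below 0.05. ROBO4, SEMA7A and NTN1 lie far to the right and SEMA3B and EFNB3 far to the left under both treatments.

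**Figure D3:**
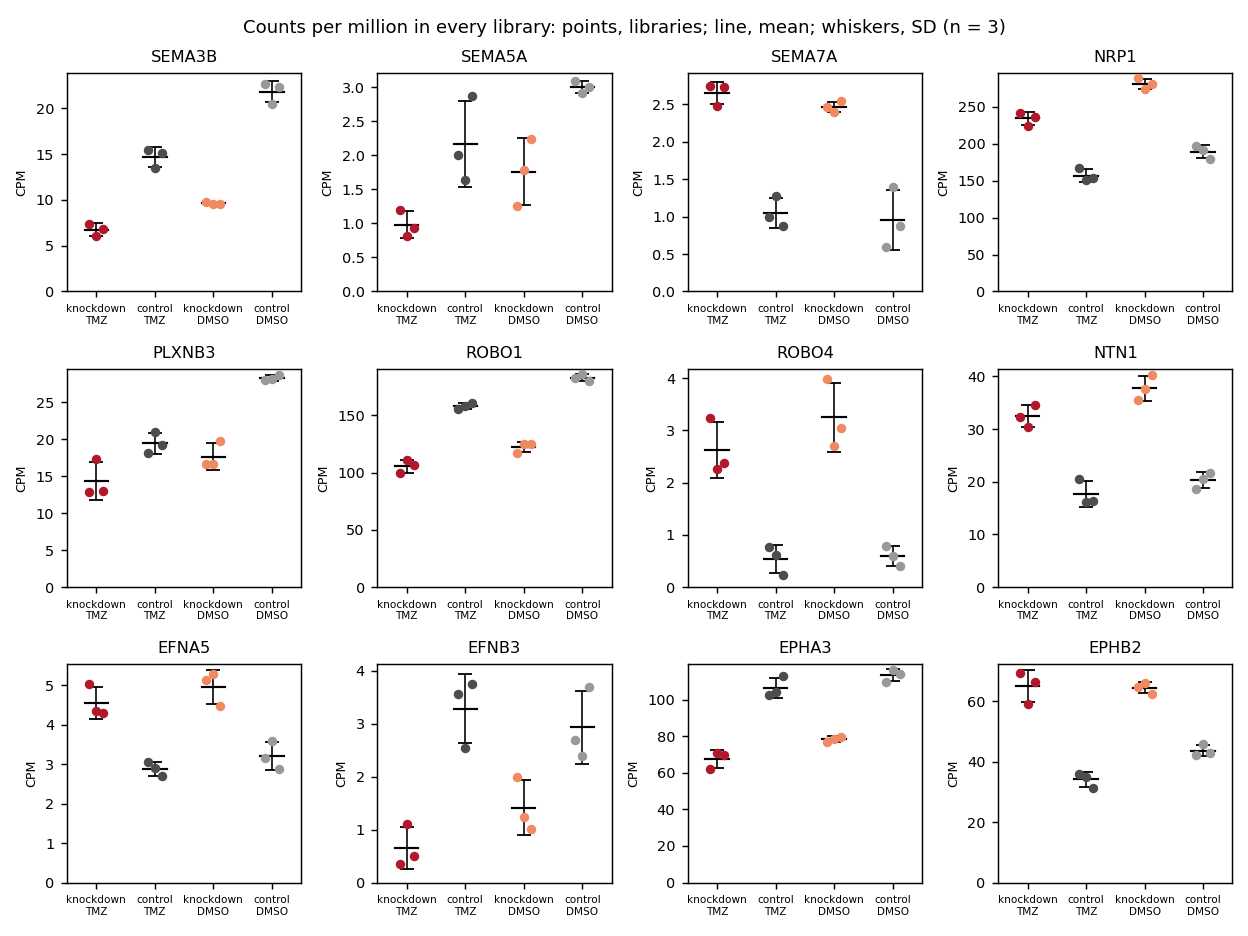
CPM of 12 guidance genes in every library, in the order knockdown temozolomide, control temozolomide, knockdown DMSO and control DMSO; points are libraries, lines means and whiskers SD (n = 3), and each vertical axis starts at 0. SEMA3B, ROBO1 and EPHA3 are lower and NRP1, NTN1 and EPHB2 higher in the knockdown group of each treatment.

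Among the secreted class 3 semaphorins, which repel axons and also act on endothelial cells, 3 of 6 tested genes fell with knockdown under temozolomide, 2 fell under DMSO and none rose. Lower calls made up 20.3% of all genes under temozolomide and 21.4% under DMSO, and higher calls 22.0% and 21.1%. SEMA3B had 7.42, 6.07 and 6.82 CPM in knockdown temozolomide libraries, against 15.5, 13.5 and 15.1 CPM in control temozolomide libraries, and 9.79, 9.53 and 9.56 CPM in knockdown DMSO libraries, against 22.7, 20.5 and 22.3 CPM in control DMSO libraries. The groups did not overlap, and SEMA3B, described as a tumour suppressor in lung cancer, was 0.456 times the control level under temozolomide (log2 fold change -1.13, SE 0.10, adjusted p = 8.2e-09) and 0.44 times under DMSO (log2 fold change -1.18, SE 0.09, adjusted p = 1.3e-09). SEMA3A, the founding collapsing factor, fell by less, with log2 fold changes of -0.21, adjusted p = 0.000151, under temozolomide and -0.13, adjusted p = 0.00824, under DMSO. The DMSO call of SEMA3A was lost without control DMSO 1 (adjusted p = 0.0613) and with library totals in place of TMM factors (adjusted p = 0.0617). SEMA3C, the highest ligand of all, was called lower under temozolomide (log2 fold change -0.30, SE 0.04, adjusted p = 1.5e-06) and missed the threshold under DMSO (-0.07, adjusted p = 0.134), where it was called lower with a correction for GC content (-0.17, adjusted p = 0.000237); its libraries are given with the drug response below. SEMA3E, SEMA3F and SEMA3G did not pass under either treatment.

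The membrane-bound and lipid-anchored semaphorins diverged. SEMA7A, a lipid-anchored ligand that binds integrins and PLXNC1, was low and rose. SEMA7A had 2.75, 2.48 and 2.73 CPM in knockdown temozolomide libraries, against 1, 1.27 and 0.878 CPM in control temozolomide libraries, and 2.46, 2.4 and 2.54 CPM in knockdown DMSO libraries, against 0.592, 1.39 and 0.881 CPM in control DMSO libraries. Every knockdown library lay above every control library, with a fold of 2.52 under temozolomide (log2 fold change 1.34, SE 0.26, adjusted p = 0.000254) and 2.58 under DMSO (log2 fold change 1.37, SE 0.27, adjusted p = 0.000365). SEMA6B, a transmembrane ligand of A-type plexins, had 28.1, 28.4 and 25.3 CPM in knockdown temozolomide libraries, against 20.9, 22 and 19.1 CPM in control temozolomide libraries, and 34.6, 35.9 and 33.2 CPM in knockdown DMSO libraries, against 26.6, 24.3 and 27.8 CPM in control DMSO libraries. It was higher in all knockdown libraries of each treatment, by 0.41 ± 0.07 (log2 ± SE, adjusted p = 0.000112) under temozolomide and 0.39 ± 0.07 (adjusted p = 0.000114) under DMSO.

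SEMA5A, a ligand of B-type and A-type plexins with thrombospondin repeats, moved the other way. SEMA5A had 1.2, 0.812 and 0.933 CPM in knockdown temozolomide libraries, against 2, 1.63 and 2.87 CPM in control temozolomide libraries, and 1.26, 1.78 and 2.24 CPM in knockdown DMSO libraries, against 3.09, 2.92 and 3 CPM in control DMSO libraries. The ranges did not overlap under either treatment, and SEMA5A fell under temozolomide (log2 fold change -1.14, SE 0.28, adjusted p = 0.00243) and under DMSO (log2 fold change -0.75, SE 0.25, adjusted p = 0.0202). At these low counts the DMSO call was lost without control DMSO 1 or 3 or knockdown DMSO 1 or 2 (adjusted p = 0.0508 to 0.102). Of the 5 tested class 4 semaphorins none was called under DMSO, beside 42.6% of all genes. There SEMA4B, the most abundant, had a 95% interval of -0.12 to 0.11 on the log2 scale. Under temozolomide SEMA4B had 65.7, 67.8 and 58.7 CPM in knockdown libraries, against 58.2, 56 and 51 CPM in control libraries. These values did not overlap, and SEMA4B was called higher (log2 fold change 0.22, SE 0.05, adjusted p = 0.00249).

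On the receptor side 1 of the 2 neuropilins was called, beside 42.3% of all genes under temozolomide and 42.6% under DMSO. NRP1 had 242.2, 224.7 and 236.3 CPM in knockdown temozolomide libraries, against 167.4, 150.4 and 153.3 CPM in control temozolomide libraries, and 288.6, 274.3 and 281 CPM in knockdown DMSO libraries, against 197.1, 191.4 and 179.3 CPM in control DMSO libraries. NRP1, the coreceptor for SEMA3A and for vascular endothelial growth factor, thus rose without overlap, by the same amount under temozolomide (log2 fold change 0.57, SE 0.04, adjusted p = 1.4e-09) and under DMSO (log2 fold change 0.57, SE 0.04, adjusted p = 1.3e-09). NRP2, the preferred coreceptor of SEMA3F, was not called, with 95% intervals of -0.14 to -0.01 under temozolomide and -0.13 to 0.01 under DMSO on the log2 scale. Small falls of NRP2 were called under temozolomide with the GC correction (-0.13, adjusted p = 0.0023), with relative log expression factors (-0.08, adjusted p = 0.047), under DESeq2 (-0.08, adjusted p = 0.0419) and without control DMSO 2 or 3 (adjusted p = 0.0381 and 0.0294), and under DMSO with the GC correction (-0.09, adjusted p = 0.0316) and without control DMSO 3 (-0.09, adjusted p = 0.0396). The ratio of NRP1 to NRP2 FPKM was 0.755 to 1.0 in knockdown temozolomide libraries, against 0.562 to 0.585 in control temozolomide libraries, and 0.816 to 0.909 in knockdown DMSO libraries, against 0.449 to 0.543 in control DMSO libraries.

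Plexins, the signalling partners, fell where they were called under DMSO. PLXNB3, a receptor of SEMA5A, had 12.8, 17.3 and 13 CPM in knockdown temozolomide libraries, against 18.1, 21 and 19.2 CPM in control temozolomide libraries, and 16.6, 16.6 and 19.8 CPM in knockdown DMSO libraries, against 28, 28.1 and 28.7 CPM in control DMSO libraries. The pairs of groups did not overlap, and PLXNB3 fell under temozolomide (log2 fold change -0.42, SE 0.10, adjusted p = 0.00262) and under DMSO (log2 fold change -0.67, SE 0.10, adjusted p = 1.2e-05). PLXNB3 overlaps SRPK3 on the same strand in the annotation, so reads of the pair may be split between them. PLXND1 had 120.3, 126.5 and 112.3 CPM in knockdown temozolomide libraries, against 137.1, 130.1 and 131.7 CPM in control temozolomide libraries, and 125.6, 132.3 and 121.5 CPM in knockdown DMSO libraries, against 166.4, 168.7 and 166.2 CPM in control DMSO libraries. PLXND1, a receptor of SEMA3E that is best known from blood vessels, did not overlap between groups either, and it fell under temozolomide (log2 fold change -0.15, SE 0.04, adjusted p = 0.00788) and under DMSO (log2 fold change -0.40, SE 0.04, adjusted p = 1.5e-07). The call under temozolomide was lost without knockdown temozolomide 3 (adjusted p = 0.0531). PLXNA2 fell alike in both comparisons (-0.20 under temozolomide and -0.20 under DMSO), PLXNA1 was called higher under temozolomide (0.20, adjusted p = 0.00333; 0.02, adjusted p = 0.809, under DMSO), and PLXNB2 lower under DMSO (-0.26, adjusted p = 5.6e-06; -0.07, adjusted p = 0.152, under temozolomide, where it was called with the GC correction, at -0.10, adjusted p = 0.0187). PLXNA3, PLXNB1 and PLXNC1 were not called.

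The slit ligands did not pass the test in either knockdown comparison, while their receptors moved in both directions. SLIT2, the main slit, had 95% intervals of -0.05 to 0.16 under temozolomide and -0.08 to 0.13 under DMSO on the log2 scale. ROBO1 had 99.3, 110.8 and 106.4 CPM in knockdown temozolomide libraries, against 155.9, 158.1 and 160.9 CPM in control temozolomide libraries, and 117.2, 125.2 and 124.6 CPM in knockdown DMSO libraries, against 182.7, 186.4 and 179.9 CPM in control DMSO libraries. ROBO1, the main receptor by level, fell without overlap to 0.667 times the control level under temozolomide (log2 fold change -0.58, SE 0.04, adjusted p = 3.2e-10) and 0.669 times under DMSO (log2 fold change -0.58, SE 0.04, adjusted p = 3.1e-10). ROBO4, a receptor known from endothelial cells, was rare in control cells and rose the most of all 49 genes. ROBO4 had 3.23, 2.25 and 2.37 CPM in knockdown temozolomide libraries, against 0.762, 0.605 and 0.234 CPM in control temozolomide libraries, and 3.99, 2.7 and 3.05 CPM in knockdown DMSO libraries, against 0.79, 0.597 and 0.411 CPM in control DMSO libraries. As estimated counts these were 54, 47 and 33 in knockdown temozolomide libraries, against 19, 10 and 4 in control temozolomide libraries, and 60, 44 and 60 in knockdown DMSO libraries, against 12, 9 and 7 in control DMSO libraries. The lowest knockdown library exceeded the highest control library under each treatment, and the fold was 4.64 under temozolomide (log2 fold change 2.21, SE 0.33, adjusted p = 1.3e-05) and 5.4 under DMSO (log2 fold change 2.43, SE 0.33, adjusted p = 4.3e-06). Of the 3 tested endothelial markers 1 was higher and 1 lower with knockdown under each treatment. Their median log2 fold change was 0.37 under temozolomide and 0.79 under DMSO. Summed over all 6 listed endothelial markers the level was 3.86 to 4.43 FPKM in knockdown temozolomide libraries, against 5.73 to 6.85 in control temozolomide libraries. The sum was 8.21 to 8.35 FPKM in knockdown DMSO libraries, against 11.2 to 12.6 in control DMSO libraries. These markers thus went in both directions, and their part in the rise of ROBO4 was not tested. PECAM1, VWF, CLDN5 and TIE1 averaged at most 0.203 FPKM in any group. ROBO2 was at -0.20, adjusted p = 0.0818, under temozolomide (-0.28, adjusted p = 0.026, without control temozolomide 2) and was called lower under DMSO (-0.28, adjusted p = 0.0132), a call lost without control DMSO 1 (adjusted p = 0.0664) or knockdown DMSO 1 (adjusted p = 0.0644).

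NTN1, the classical netrin that guides commissural axons, was higher in knockdown cells, while NTN4, a laminin-binding netrin, was not called higher. NTN1 had 32.3, 30.4 and 34.6 CPM in knockdown temozolomide libraries, against 20.5, 16.1 and 16.3 CPM in control temozolomide libraries, and 35.5, 37.6 and 40.2 CPM in knockdown DMSO libraries, against 18.7, 20.5 and 21.7 CPM in control DMSO libraries. No knockdown library of either treatment fell within the control range, and the fold was 1.81 under temozolomide (log2 fold change 0.86, SE 0.09, adjusted p = 8.0e-08) and 1.86 under DMSO (log2 fold change 0.90, SE 0.09, adjusted p = 3.6e-08). NTN4, the more abundant of the pair, had 54.1, 55.5 and 57.8 CPM in knockdown temozolomide libraries, against 65.3, 63.1 and 66.4 CPM in control temozolomide libraries, and 75.9, 76 and 72.9 CPM in knockdown DMSO libraries, against 74.9, 78.5 and 72.1 CPM in control DMSO libraries. The temozolomide groups did not overlap, with NTN4 lower in knockdown cells (log2 fold change -0.22, SE 0.05, adjusted p = 0.000501), and the DMSO groups overlapped (log2 fold change -0.01, adjusted p = 0.932). The NTN1 to NTN4 ratio in FPKM was 0.265 to 0.315 in knockdown DMSO libraries, against 0.14 to 0.167 in control DMSO libraries.

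Of 7 tested ephrins 1 was higher in knockdown cells under both treatments, 1 lower under both and 2 lower under DMSO. Beside these stand 22.0% higher and 20.3% lower calls of all genes under temozolomide, and 21.1% and 21.4% under DMSO. EFNA5, an A-type ephrin used in retinotectal mapping, rose. EFNA5 had 5.03, 4.35 and 4.31 CPM in knockdown temozolomide libraries, against 3.05, 2.9 and 2.69 CPM in control temozolomide libraries, and 5.13, 5.29 and 4.47 CPM in knockdown DMSO libraries, against 3.16, 3.58 and 2.88 CPM in control DMSO libraries. The ranges were apart under both treatments, by 0.66 ± 0.16 (log2 ± SE, adjusted p = 0.00201) under temozolomide and 0.63 ± 0.16 (adjusted p = 0.00298) under DMSO. EFNB3, a B-type ephrin of the midline, was measured on few counts and fell. EFNB3 had 0.359, 1.1 and 0.502 CPM in knockdown temozolomide libraries, against 3.57, 2.54 and 3.75 CPM in control temozolomide libraries, and 2, 1.23 and 1.02 CPM in knockdown DMSO libraries, against 2.7, 2.39 and 3.7 CPM in control DMSO libraries. These libraries did not overlap, and EFNB3 was lower under temozolomide (log2 fold change -2.25, SE 0.33, adjusted p = 1.3e-05) and under DMSO (log2 fold change -1.08, SE 0.31, adjusted p = 0.00698). The DMSO call was lost without knockdown DMSO 3 (adjusted p = 0.0517) or control DMSO 3 (adjusted p = 0.056).

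EFNA3 had 1.8, 2.34 and 1.87 CPM in knockdown temozolomide libraries, against 2.81, 2.96 and 2.52 CPM in control temozolomide libraries, and 2.15, 1.54 and 1.93 CPM in knockdown DMSO libraries, against 3.16, 3.5 and 3.82 CPM in control DMSO libraries. It missed the threshold under temozolomide (-0.45, adjusted p = 0.0802) and was called lower under DMSO (log2 fold change -0.91, SE 0.20, adjusted p = 0.00109), although neither pair of groups overlapped. EFNA4 was lower under DMSO as well (-0.42, adjusted p = 0.0254), a call lost without control DMSO 1 or 3 or knockdown DMSO 2 or 3 (adjusted p = 0.0723 to 0.107). Both EFNA3 and EFNA4 overlap a fusion-type gene of the count table, AL691442.1, on the same strand, so their reads may be split and these values are uncertain. The abundant ligands were not called: EFNB2, with an interval of -0.09 to 0.10 under temozolomide and -0.14 to 0.04 under DMSO, and EFNA1, at 0.28, adjusted p = 0.0572, under temozolomide and 0.15, adjusted p = 0.306, under DMSO. EFNA1 under temozolomide was called higher with library totals (adjusted p = 0.0303) and without knockdown temozolomide 1 (adjusted p = 0.0123). EFNB1 did not pass either.

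Of 7 tested Eph receptors 7 were called under temozolomide, beside 42.3% of all genes, and 6 under DMSO, beside 42.6%, in both directions. Whether this differs from the other families was not tested. The calls of EPHA4 and EPHB3 under temozolomide and of EPHA4 and EPHB4 under DMSO were lost under the alternatives named with them below. EPHB2, a kinase linked to glioma cell migration, rose. EPHB2 had 69.5, 59.1 and 66.4 CPM in knockdown temozolomide libraries, against 36.1, 35.1 and 31.4 CPM in control temozolomide libraries, and 64.8, 66.2 and 62.5 CPM in knockdown DMSO libraries, against 42.4, 45.8 and 42.8 CPM in control DMSO libraries. EPHB2 was higher in all knockdown libraries of each treatment, with a fold of 1.89 under temozolomide (log2 fold change 0.92, SE 0.06, adjusted p = 1.9e-10) and 1.48 under DMSO (log2 fold change 0.56, SE 0.06, adjusted p = 2.6e-07). EPHA2 had 172, 150.8 and 148.2 CPM in knockdown temozolomide libraries, against 114.6, 104.4 and 105 CPM in control temozolomide libraries, and 174, 173.4 and 174.9 CPM in knockdown DMSO libraries, against 146.1, 134.9 and 143.3 CPM in control DMSO libraries. EPHA2, often abundant in glioblastoma and a receptor of EFNA1, likewise rose without overlap under temozolomide (log2 fold change 0.54, SE 0.05, adjusted p = 2.8e-08) and under DMSO (log2 fold change 0.30, SE 0.05, adjusted p = 5.3e-05). EPHB4, the receptor of EFNB2 and the most abundant EphB gene, had 122.4, 118.4 and 119.6 CPM in knockdown temozolomide libraries, against 106.8, 99.6 and 89.3 CPM in control temozolomide libraries, and 126.6, 127 and 128 CPM in knockdown DMSO libraries, against 116.2, 113.2 and 118.7 CPM in control DMSO libraries. Its rise was small, 0.28 ± 0.05 (log2 ± SE, adjusted p = 7.1e-05) under temozolomide and 0.13 ± 0.05 (adjusted p = 0.0304) under DMSO. The DMSO call was lost without control DMSO 1 or 2 or any 1 knockdown DMSO library (adjusted p = 0.0592 to 0.0828).

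EPHA3, a receptor of EFNA5 found on mesenchymal-type glioma cells, fell. EPHA3 had 61.8, 70.7 and 69.8 CPM in knockdown temozolomide libraries, against 102.2, 104.2 and 112.6 CPM in control temozolomide libraries, and 76.6, 78.5 and 79.7 CPM in knockdown DMSO libraries, against 109.8, 116.1 and 114 CPM in control DMSO libraries. The groups stood apart in both comparisons, with EPHA3 at 0.635 times the control level under temozolomide (log2 fold change -0.65, SE 0.05, adjusted p = 1.1e-09) and 0.691 times under DMSO (log2 fold change -0.53, SE 0.05, adjusted p = 2.1e-08). EPHB3 fell too, at -0.47 ± 0.06 (log2 ± SE, adjusted p = 2.4e-06) under DMSO. Its fall under temozolomide, at -0.18 ± 0.06 (adjusted p = 0.0277), was a call lost without control temozolomide 1 or 3 or knockdown temozolomide 1 or 3 (adjusted p = 0.0555 to 0.145) and with library totals (adjusted p = 0.0752). The ratio of EPHB2 to EPHB3 FPKM was 1.58 to 1.93 in knockdown temozolomide libraries, against 0.723 to 0.869 in control temozolomide libraries, and 1.43 to 1.53 in knockdown DMSO libraries, against 0.704 to 0.805 in control DMSO libraries. The ratio of EPHA2 to EPHA3 FPKM was 3.03 to 3.92 in knockdown temozolomide libraries, against 1.35 to 1.59 in control temozolomide libraries, and 3.11 to 3.27 in knockdown DMSO libraries, against 1.66 to 1.87 in control DMSO libraries. Both ratios restate the changes of the single genes and are not a further test.

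EPHA5 was called lower under temozolomide (-0.27, adjusted p = 0.000144) and missed the threshold under DMSO (-0.09, adjusted p = 0.133), where it was called lower with the GC correction (-0.19, adjusted p = 0.000333). EPHA4 was called lower in both comparisons, at -0.30, adjusted p = 0.00779, under temozolomide and -0.21, adjusted p = 0.0492, under DMSO. The DMSO call was lost under DESeq2 (adjusted p = 0.102), with library totals (adjusted p = 0.117), with a replicate block (adjusted p = 0.0553) and without control DMSO 1 or 2, any 1 knockdown DMSO library or control temozolomide 2 or 3 (adjusted p = 0.0519 to 0.202). On log2 FPKM the EPHA4 difference under temozolomide was 0.00 to 0.01. In limma fits to log2 FPKM, EFNA5, EPHA4, EPHB3, PLXNA2, PLXNB3, PLXND1, SEMA3A and SEMA5A lost their call under temozolomide, and EFNA4, EPHA4, PLXNA2, PLXNB3, ROBO2, SEMA3A and SEMA5A under DMSO, in at least 1 of 3 such fits.

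Promoter sequence is shown for the genes that were called in the same direction in both knockdown comparisons, with an absolute log2 fold change of at least 0.5 in each, and that have 1 start site in the RefSeq promoter table (GRCh38.p14), which held 56 of the 64 genes. These were ROBO4 (chr11:124897866-124898115, minus strand) and EFNA5 (chr5:107670938-107671187, minus strand), which rose, and EPHA3 (chr3:89107371-89107620, plus strand) and SEMA5A (chr5:9546076-9546325, minus strand), which fell. Each line gives the 250 bases before the RefSeq start, 5′ to 3′, with every match to a searched motif in capitals. In the GENCODE v29 annotation ROBO4 reaches chr11:124898500, so its whole window lies inside that gene model. EPHA3 starts there at chr3:89107524, within its window. Only 1 of the 5 motifs, the GC box GGGCGG or its reverse complement, was found in these windows.
ROBO4: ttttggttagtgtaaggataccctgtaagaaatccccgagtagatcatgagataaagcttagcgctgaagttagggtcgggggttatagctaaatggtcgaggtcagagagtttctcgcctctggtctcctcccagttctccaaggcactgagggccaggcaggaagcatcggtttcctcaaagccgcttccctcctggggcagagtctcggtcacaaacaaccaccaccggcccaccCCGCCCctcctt
EFNA5: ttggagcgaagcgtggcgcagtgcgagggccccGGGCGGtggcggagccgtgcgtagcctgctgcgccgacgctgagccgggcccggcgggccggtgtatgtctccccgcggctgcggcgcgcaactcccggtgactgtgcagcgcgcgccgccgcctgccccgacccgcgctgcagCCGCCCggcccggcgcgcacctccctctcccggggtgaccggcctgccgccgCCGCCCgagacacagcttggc
EPHA3: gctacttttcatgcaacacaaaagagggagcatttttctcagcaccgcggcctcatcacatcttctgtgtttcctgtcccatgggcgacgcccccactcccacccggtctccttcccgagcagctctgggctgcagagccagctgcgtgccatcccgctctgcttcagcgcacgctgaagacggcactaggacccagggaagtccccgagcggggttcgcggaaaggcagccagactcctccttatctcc
SEMA5A: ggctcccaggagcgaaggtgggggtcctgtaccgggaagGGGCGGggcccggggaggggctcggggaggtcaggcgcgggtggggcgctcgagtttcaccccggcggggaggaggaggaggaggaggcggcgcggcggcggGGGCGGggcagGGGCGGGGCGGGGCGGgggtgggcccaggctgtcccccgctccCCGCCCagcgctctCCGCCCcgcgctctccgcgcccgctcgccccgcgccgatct

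SEMA5A held 7 GC boxes, of which 3 followed each other with a shared base between neighbours, EFNA5 held 3, ROBO4 held 1 and EPHA3 held none. The EFNA5 and SEMA5A windows were 79.6% and 82.0% G and C, and those of EPHA3 and ROBO4 were 61.2% and 54.8%. Across the 43 tested guidance genes in the table a GC box was present in 74.6% of 67 windows, beside 42.6% of all 35116 windows of the same length, which had a median of 58.0% G and C, against 68.0% in the guidance windows. For genes called higher with knockdown under both treatments it was in 8 of 8 windows of 6 genes, and for those called lower in 10 of 15 windows of 9 genes. The median G and C content was 75.2% in the windows of the genes called higher and 64.4% in those of the genes called lower. The part of base content in these counts was not tested. The other motifs, searched on both strands, were the ETS site CCGGAAG (4.48% of guidance windows, 8.52% of all), the AP-1 site TGANTCA (1.49% and 6.57%), the TEAD site GGAATG (8.96% and 11.9%) and the interferon-stimulated response core (1.49% and 3.02%). A match describes letters only, and windows of 1 gene with several starts overlap.

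Several guidance genes lie beside each other in the genome. On chromosome 11 ROBO3 (chr11:124865386-124881470) and ROBO4 (chr11:124883691-124898500; GRCh38, GENCODE v29) are 2.2 kb apart. ROBO4 rose under both treatments and ROBO3 had log2 fold changes of 0.37, adjusted p = 0.186, under temozolomide and 0.34, adjusted p = 0.189, under DMSO. On chromosome 3 SEMA3F (chr3:50155045-50189075) and SEMA3B (chr3:50267558-50277546) are 78.5 kb apart; SEMA3B fell, and SEMA3F had -0.23, adjusted p = 0.144, under DMSO. ROBO2 (chr3:75906695-77649964) and ROBO1 (chr3:78597240-79767815), 947.3 kb apart on the same chromosome, were both lower under DMSO. On chromosome 1 EFNA4, EFNA3 and EFNA1 fall within chr1:155063731-155069553 to chr1:155127460-155134857, and the first and second of these were lower under DMSO while EFNA1 was not called. The other genes with the largest differences lie at chr15:74409289-74433958 (SEMA7A), chr10:33177492-33336262 (NRP1), chr17:9021542-9244000 (NTN1), chr17:7705202-7711378 (EFNB3), chr1:22710839-22921500 (EPHB2), chr3:89107524-89482134 (EPHA3), chr1:16124337-16156087 (EPHA2), chr5:107376889-107670895 (EFNA5), chrX:153764196-153779346 (PLXNB3) and chr5:9035026-9546075 (SEMA5A).

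The comparison of temozolomide with DMSO asks how the drug changes these genes, in knockdown cells and again in control cells. In knockdown cells 20 of 49 tested guidance genes were lower and 1 was higher with temozolomide, 42.9% of the tested members beside a percent called of 22.3 over all genes. By direction, 40.8% were lower, beside 13.2 over all genes, and 2.0% higher, beside 9.05. In control cells 26 were lower and 1 higher, 55.1% beside 27.5 over all genes, with 53.1% lower beside 15.8 and 2.0% higher beside 11.7. The groups did not overlap for 26 of the 49 genes in knockdown cells, 53.1% beside 37.2 over all genes, and for 30 in control cells, 61.2% beside 39.8. The median log2 fold change was -0.21 in knockdown cells and -0.23 in control cells, beside 0.00 and -0.00 over all genes, and 38 and 39 of the 49 estimates were negative. Of the genes lower in knockdown cells 16 were also lower in control cells, 80.0% of the first list and 61.5% of the second. This overlap was not computed over all genes either. In knockdown cells 9 of 28 tested ligands and 11 of 21 tested receptors were lower, and in control cells 11 and 15. Markers of cell types moved with the drug too. Of 7 tested astroglial and progenitor markers 5 were lower with temozolomide in knockdown cells (median log2 fold change -0.29) and 5 in control cells (-0.30). Their summed level was 1870 to 1980 FPKM in knockdown temozolomide libraries, against 2230 to 2250 FPKM in knockdown DMSO libraries, and 1540 to 1630 FPKM in control temozolomide libraries, against 1920 to 2010 FPKM in control DMSO libraries. Of 3 tested endothelial markers 2 were lower in knockdown cells (median -0.86) and 1 in control cells (-1.04), with a sum of 3.86 to 4.43 FPKM in knockdown temozolomide libraries, against 8.21 to 8.35 FPKM in knockdown DMSO libraries, and 5.73 to 6.85 FPKM in control temozolomide libraries, against 11.2 to 12.6 FPKM in control DMSO libraries. Neuron markers did not fall, as 1 of 4 tested was higher and 0 were lower with temozolomide in each kind of cell. Their median log2 fold change was -0.11 in knockdown cells and 0.04 in control cells. The neuron marker sum was 34.4 to 37.9 FPKM in knockdown temozolomide libraries, against 28.1 to 29.1 FPKM in knockdown DMSO libraries. In control cells it was 23.7 to 25.7 FPKM with temozolomide, against 17.6 to 20 FPKM with DMSO. The part of these markers in the guidance gene changes was not tested. The knockdown and drug comparisons share libraries, so they are set side by side and not correlated.

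**Figure D4:**
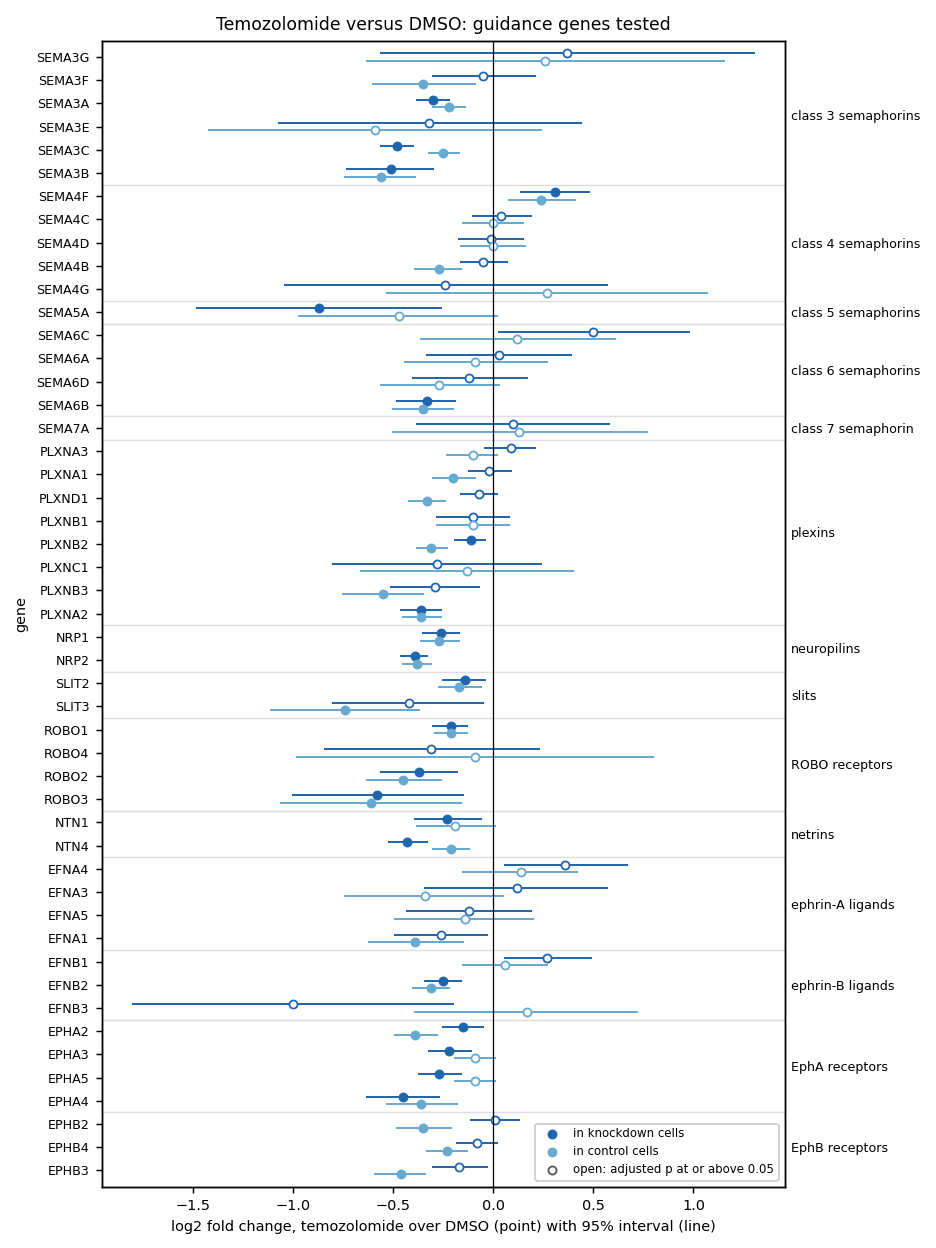
Log2 fold change of each tested guidance gene, temozolomide over DMSO, by family; points are estimates, lines 95% intervals, dark blue in knockdown cells and light blue in control cells, filled where the adjusted p is below 0.05. Nearly all filled points lie left of 0, with SEMA4F the 1 gene called higher in both.

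Of 6 tested class 3 semaphorins 3 fell in knockdown and 4 in control cells, and both neuropilins fell in each. Lower calls made up 13.2% of all genes in knockdown cells and 15.8% in control cells. SEMA3C had 142.4, 156 and 148.1 CPM in knockdown temozolomide libraries, against 212.2, 202 and 208 CPM in knockdown DMSO libraries, and 179.8, 185.1 and 184.9 CPM in control temozolomide libraries, against 215.1, 222.2 and 215.8 CPM in control DMSO libraries. SEMA3C, a secreted ligand studied in glioma stem cells, dropped without overlap in knockdown cells (log2 fold change -0.48, SE 0.04, adjusted p = 6.5e-09) and in control cells (log2 fold change -0.25, SE 0.04, adjusted p = 3.4e-05). SEMA3B fell in knockdown cells (log2 fold change -0.51, SE 0.11, adjusted p = 0.00126) and in control cells (log2 fold change -0.56, SE 0.08, adjusted p = 4.4e-05), and SEMA3A at -0.30 ± 0.04 in knockdown cells and -0.22 ± 0.04 (log2 ± SE) in control cells. NRP2 had 273.1, 278.6 and 276.1 CPM in knockdown temozolomide libraries, against 361.5, 361.4 and 364 CPM in knockdown DMSO libraries, and 293.8, 290.8 and 286.2 CPM in control temozolomide libraries, against 381, 389.1 and 362.5 CPM in control DMSO libraries. The NRP2 groups were wide apart, with log2 changes of -0.39 ± 0.03 (log2 ± SE, adjusted p = 1.4e-08) in knockdown cells and -0.38 ± 0.03 (adjusted p = 2.7e-08) in control cells. NRP1 fell, at -0.26 ± 0.04 in knockdown cells and -0.27 ± 0.04 in control cells, and the libraries with both hairpin and drug lay above the control DMSO libraries, at 242.2, 224.7 and 236.3 CPM in knockdown temozolomide, against 197.1, 191.4 and 179.3 CPM in control DMSO.

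Both tested slits and 3 of 4 ROBO receptors fell in control cells, and SLIT2 and the same 3 ROBO receptors in knockdown cells. Beside these stand lower calls for 15.8% of all genes in control cells and 13.2% in knockdown cells. SLIT3 had 3.11, 3.01 and 2.66 CPM in knockdown temozolomide libraries, against 3.93, 4.49 and 3.46 CPM in knockdown DMSO libraries, and 2.41, 2.42 and 3.34 CPM in control temozolomide libraries, against 4.61, 4.05 and 4.88 CPM in control DMSO libraries. Both pairs were apart, and the fall was not called in knockdown cells (-0.42, adjusted p = 0.102) and called in control cells (log2 fold change -0.74, SE 0.18, adjusted p = 0.00371). SLIT2 had 80.1, 76.3 and 83.5 CPM in knockdown temozolomide libraries, against 87.7, 85.8 and 90.6 CPM in knockdown DMSO libraries, and 78.1, 77.5 and 75 CPM in control temozolomide libraries, against 88.3, 92.1 and 79.2 CPM in control DMSO libraries. The SLIT2 groups did not overlap, and it fell slightly in knockdown cells (-0.14, adjusted p = 0.045) and in control cells (-0.17, adjusted p = 0.016). The knockdown call was lost without any 1 knockdown DMSO library, knockdown temozolomide 1 or 2 or control temozolomide 2 or 3 (adjusted p = 0.0518 to 0.218), and the control call without control DMSO 1 or 2 or control temozolomide 3 (adjusted p = 0.0662 to 0.114). ROBO3 had 3.17, 2.39 and 2.15 CPM in knockdown temozolomide libraries, against 4.46, 3.63 and 3.51 CPM in knockdown DMSO libraries, and 2.29, 1.45 and 2.17 CPM in control temozolomide libraries, against 3.03, 2.98 and 3.11 CPM in control DMSO libraries. ROBO3, a receptor of commissural axons, fell without overlap in knockdown cells (log2 fold change -0.58, SE 0.20, adjusted p = 0.047) and in control cells (log2 fold change -0.61, SE 0.22, adjusted p = 0.0405). The knockdown call was lost without control DMSO 1, any 1 knockdown DMSO library or knockdown temozolomide 2 or 3 (adjusted p = 0.0502 to 0.172), and the control call without any 1 control DMSO library or control temozolomide 2 or 3 (adjusted p = 0.0567 to 0.159). Under DESeq2 both were lost (adjusted p = 0.0762 and 0.0662). ROBO1 fell, at -0.21 ± 0.04 (log2 ± SE) in knockdown cells and -0.21 ± 0.04 in control cells, and ROBO2 at -0.37 ± 0.09 in knockdown cells and -0.45 ± 0.09 in control cells. The ROBO2 call in knockdown cells was lost without knockdown DMSO 3 (adjusted p = 0.0503). ROBO4 was not called in either.

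Among the netrins and ephrins NTN4 and EFNB2 fell in both kinds of cell. NTN4, with the values given above, fell in knockdown cells (log2 fold change -0.43, SE 0.05, adjusted p = 6.6e-07) and in control cells (log2 fold change -0.21, SE 0.04, adjusted p = 0.00125) without overlap. EFNB2 had 85, 82.7 and 86.3 CPM in knockdown temozolomide libraries, against 97.1, 102.5 and 102.4 CPM in knockdown DMSO libraries, and 85.4, 87 and 80.3 CPM in control temozolomide libraries, against 110.1, 102.2 and 101 CPM in control DMSO libraries. EFNB2, a ligand of EPHB4 in vessels, fell without overlap in knockdown cells (log2 fold change -0.25, SE 0.04, adjusted p = 0.000266) and in control cells (log2 fold change -0.31, SE 0.04, adjusted p = 2.1e-05). EFNA1 had 8.62, 10.6 and 11.5 CPM in knockdown temozolomide libraries, against 12.4, 13.2 and 11.1 CPM in knockdown DMSO libraries, and 8.62, 8.17 and 8.43 CPM in control temozolomide libraries, against 11, 10 and 12 CPM in control DMSO libraries. The knockdown groups overlapped and the control groups did not. EFNA1 was called in control cells (log2 fold change -0.39, SE 0.11, adjusted p = 0.0143), a call lost without control DMSO 3 (adjusted p = 0.0819), and was at -0.26, adjusted p = 0.102, in knockdown cells. NTN1 was lower in knockdown cells (-0.23, adjusted p = 0.0481), lost without knockdown DMSO 2 or 3 or knockdown temozolomide 1 or 2 (adjusted p = 0.0935 to 0.196) and under DESeq2 (adjusted p = 0.0562).

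Of 8 tested plexins 2 were lower in knockdown and 5 in control cells, and of 7 Eph receptors 4 and 5. Of all genes 13.2% were lower in knockdown and 15.8% in control cells. The difference of the counts was not tested. In control cells PLXNB3 (-0.55, adjusted p = 0.000236), PLXNA2 (-0.36, adjusted p = 6.5e-06), PLXND1 (-0.33, adjusted p = 7.0e-06), PLXNB2 (-0.31, adjusted p = 2.3e-06) and PLXNA1 (-0.20, adjusted p = 0.00667) were lower. The PLXNA1 call was lost with the GC correction (-0.09, adjusted p = 0.176) and with library totals (-0.13, adjusted p = 0.0594). In knockdown cells PLXNA2 (-0.36, adjusted p = 9.4e-06) and PLXNB2 (-0.11, adjusted p = 0.0314) were, the second lost without knockdown DMSO 1 or 2 or knockdown temozolomide 1 or 3 (adjusted p = 0.0507 to 0.136). All 3 tested EphB receptors fell in control cells, EPHB3 at -0.46 ± 0.06, EPHB2 at -0.35 ± 0.07 and EPHB4 at -0.23 ± 0.05 (log2 ± SE). None of the 3 was called in knockdown cells, where their 95% intervals were -0.30 to -0.03, -0.11 to 0.13 and -0.18 to 0.02. Of the EphA receptors, EPHA2 fell in knockdown cells (-0.15, adjusted p = 0.0343) and in control cells (-0.39, adjusted p = 1.1e-05). The knockdown call was lost without any 1 knockdown DMSO library or knockdown temozolomide 2 or 3 (adjusted p = 0.0668 to 0.16). EPHA3 (-0.22, adjusted p = 0.00468) and EPHA5 (-0.27, adjusted p = 0.000517) fell in knockdown cells, and EPHA4 fell in both (-0.45, adjusted p = 0.000747, in knockdown cells and -0.36, adjusted p = 0.00286, in control cells).

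SEMA4F, a class 4 semaphorin, was the 1 gene higher with temozolomide in both kinds of cell. It had 20.4, 19.1 and 20.3 CPM in knockdown temozolomide libraries, against 16.4, 17 and 14.7 CPM in knockdown DMSO libraries, and 21.2, 21.2 and 18.9 CPM in control temozolomide libraries, against 18.2, 17.6 and 16.2 CPM in control DMSO libraries. The groups did not overlap (log2 fold change 0.31, SE 0.08, adjusted p = 0.00846, in knockdown cells and log2 fold change 0.24, SE 0.08, adjusted p = 0.0284, in control cells). The knockdown call was lost without knockdown DMSO 3 (adjusted p = 0.0708), and the control call without control DMSO 3 or control temozolomide 1 or 2 (adjusted p = 0.0943 to 0.122) and under DESeq2 (adjusted p = 0.0592). SEMA5A was called lower in knockdown cells (-0.87, adjusted p = 0.0368), SEMA4B (-0.27, adjusted p = 0.000757) and SEMA3F (-0.35, adjusted p = 0.0391) in control cells and SEMA6B in both, at -0.33 ± 0.07 in knockdown cells and -0.35 ± 0.07 (log2 ± SE) in control cells. SEMA3F in control cells lost its call under DESeq2 (adjusted p = 0.0819) and without control DMSO 1 or 3 or control temozolomide 2 or 3 (adjusted p = 0.0625 to 0.18), and SEMA5A under DESeq2 (adjusted p = 0.0534) and without knockdown DMSO 2 or 3 or knockdown temozolomide 2 or 3 (adjusted p = 0.0789 to 0.193). With library totals EPHA2, NTN1, PLXNB2, ROBO3 and SLIT2 also lost their call in knockdown cells (adjusted p = 0.0656 to 0.32), and ROBO3, SEMA3F and SLIT2 in control cells (adjusted p = 0.0609 to 0.128). With the GC correction SLIT2 in knockdown cells (adjusted p = 0.0732) and EFNA1, ROBO3 and SEMA3F in control cells (adjusted p = 0.0699 to 0.144) lost theirs, while EPHB3 and PLXNB3 in knockdown cells (adjusted p = 0.0419 and 0.0279) and EPHA3 and EPHA5 in control cells (adjusted p = 0.00968 and 0.00292) were called lower. On log2 FPKM limma called fewer guidance genes, 9 in knockdown cells and 14 in control cells. Calls lost in at least 1 of 3 such fits were EPHA2, EPHA3, EPHA4, EPHA5, NRP1, NTN1, PLXNB2, ROBO1, ROBO2, ROBO3, SEMA4F, SEMA5A, SEMA6B and SLIT2 in knockdown cells, and EFNA1, EPHA4, EPHB4, NRP1, PLXNA1, PLXNB3, ROBO1, ROBO2, ROBO3, SEMA3F, SEMA4B, SEMA4F, SLIT2 and SLIT3 in control cells.

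Set over both factors, 8 genes were called in all 4 comparisons. EPHA4, ROBO1, SEMA3A, SEMA3B and PLXNA2 were lower in each, and EPHA2, SEMA6B and NRP1 were higher with knockdown and lower with temozolomide. The comparisons share libraries, and the share of all genes called in all 4 or in none was not computed, so these counts are descriptions. Among the 8, the knockdown calls of EPHA4 and SEMA3A under DMSO and the drug call of EPHA2 in knockdown cells were lost under alternatives given above. Further calls, such as that of EPHA4 for knockdown under temozolomide, were lost on log2 FPKM. A further 12 tested genes were called in none: SEMA3E, SEMA3G, SEMA4C, SEMA4D, SEMA4G, SEMA6A, SEMA6C, SEMA6D, EFNB1, PLXNA3, PLXNB1 and PLXNC1. SEMA4C, at 6.4 ± 0.225 FPKM in control DMSO libraries, and SEMA4D, at 5.19 ± 0.264 FPKM, were the highest of these, with 95% intervals of -0.18 to 0.13 and -0.20 to 0.13 for knockdown under DMSO on the log2 scale.

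Whether the drug response itself differed between knockdown and control cells was tested as the difference of the 2 log2 changes, knockdown minus control. Of the 49 genes 2 were called, 1 in each direction, beside a percent called of 1.05 over all genes (0.437 for higher, 0.616 for lower). SEMA3C fell further in knockdown cells, a difference of -0.23 (SE 0.05, 95% interval -0.34 to -0.12, adjusted p = 0.0398). PLXND1, with the values given above, was not called in knockdown cells and fell in control cells, a difference of 0.25 (SE 0.06, 95% interval 0.13 to 0.38, adjusted p = 0.0474). The SEMA3C call was lost without control DMSO 1, knockdown DMSO 1 or 3, control temozolomide 2 or 3 or knockdown temozolomide 1 (adjusted p = 0.0744 to 0.116). The PLXND1 call was lost without any 1 of 10 libraries (adjusted p = 0.0524 to 0.14), all but control temozolomide 1 and knockdown temozolomide 3. Both calls were lost with a correction for GC content (adjusted p = 0.277 for SEMA3C and 0.456 for PLXND1) and on log2 FPKM. The libraries differed in GC content: the median log2 deviation of genes over 60% GC minus that of genes under 40% was -0.12 to 0.08 in knockdown temozolomide, -0.13 to 0.04 in control temozolomide, -0.08 to -0.03 in knockdown DMSO and 0.07 to 0.22 in control DMSO libraries. EPHB2 (0.35, adjusted p = 0.0523) and PLXNB2 (0.20, adjusted p = 0.0606) came nearest among the rest, and were called under some alternatives, EPHB2 with a replicate block (adjusted p = 0.047) and PLXNB2 under DESeq2 (adjusted p = 0.0174). Control DMSO libraries enter 3 of the 5 comparisons. With the GC correction 27 genes were called for knockdown under temozolomide, 27 under DMSO, 22 for temozolomide in knockdown cells and 25 in control cells.

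Genes that work with these families were read from lists of other guidance receptors, co-receptors, cytoplasmic effectors and proteases. Over all genes the percent called with knockdown was 22.0 for higher and 20.3 for lower calls under temozolomide and 21.1 for higher and 21.4 for lower calls under DMSO, which stand beside each count below. Of 17 other guidance receptors and ligands 8 were tested, and in knockdown cells 4 were lower under each treatment, with 1 higher under temozolomide and none under DMSO. Their median log2 fold change was -0.22 under temozolomide and -0.28 under DMSO. UNC5B, a netrin receptor, fell, at -0.68 ± 0.05 (log2 ± SE) under temozolomide and -0.78 ± 0.05 under DMSO, RGMA, a repulsive ligand of NEO1, at -0.72 ± 0.09 under temozolomide and -0.97 ± 0.09 under DMSO, and the proteoglycan GPC1 at -0.20 ± 0.05 under temozolomide and -0.38 ± 0.05 under DMSO. UNC5B also fell with temozolomide in knockdown cells (-0.33, adjusted p = 0.000227) and in control cells (-0.42, adjusted p = 4.1e-06), and NEO1 rose in both (0.25, adjusted p = 0.00637, and 0.21, adjusted p = 0.0187).

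Of 13 co-receptors 10 were tested, with 6 higher and 1 lower in knockdown cells under temozolomide and 5 and 1 under DMSO. L1CAM, an adhesion molecule that joins NRP1 in SEMA3A responses, rose by 1.37 ± 0.12 under temozolomide and 1.41 ± 0.13 under DMSO, NRCAM by 0.49 ± 0.04 under temozolomide and 0.60 ± 0.04 under DMSO, and ITGB1, an integrin chain that SEMA7A engages, by 0.38 ± 0.03 under temozolomide and 0.47 ± 0.03 (log2 ± SE) under DMSO. ERBB2, a partner of B-type plexins, fell, at -0.33 ± 0.05 under temozolomide and -0.44 ± 0.05 under DMSO. With temozolomide PLXDC1 fell in knockdown cells (-0.61, adjusted p = 5.7e-06) and in control cells (-0.60, adjusted p = 5.5e-06).

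Cytoplasmic effectors had 58 of 60 genes tested. In knockdown cells 29 were higher and 7 lower under temozolomide (median log2 fold change 0.14) and 27 higher and 10 lower under DMSO (0.10), beside medians of 0.01 and -0.00 over all genes and the percentages called given above. The kinase ABL2 rose by 1.08 ± 0.04 under temozolomide and 0.96 ± 0.04 under DMSO, and MICAL2, an actin-oxidising enzyme of the family that acts below plexins, by 1.35 ± 0.09 under temozolomide and 1.45 ± 0.09 under DMSO. CHN1, a Rac-inactivating protein used by EphA4 signalling, fell, at -0.91 ± 0.05 under temozolomide and -0.69 ± 0.04 under DMSO, and the actin-binding ABLIM1 at -0.85 ± 0.05 under temozolomide and -0.67 ± 0.05 under DMSO. With temozolomide 5 effectors were higher and 14 lower in knockdown cells (median -0.09) and 3 higher and 20 lower in control cells (-0.07), beside 9.05% higher and 13.2% lower of all genes in knockdown cells and 11.7% and 15.8% in control cells. DPYSL3, a collapsin response mediator, fell, at -0.55 ± 0.03 in knockdown cells and -0.45 ± 0.03 in control cells, and CHN1 at -0.67 ± 0.05 in knockdown cells and -0.45 ± 0.04 in control cells.

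Of 11 proteases that cut guidance proteins 9 were tested, with 3 higher and 2 lower in knockdown cells under temozolomide and 2 and 1 under DMSO. MMP2 rose with knockdown, by 0.53 ± 0.04 under temozolomide and 0.29 ± 0.04 under DMSO, and fell with temozolomide, at -0.20 ± 0.04 in knockdown cells and -0.43 ± 0.04 in control cells. PCSK5, a proprotein convertase, fell with knockdown at -0.74 ± 0.05 under temozolomide and -0.66 ± 0.05 under DMSO. ADAM10, which sheds ephrins, and FURIN, which processes class 3 semaphorins, were the 2 called in the test of the difference between drug responses, knockdown minus control, at -0.27, adjusted p = 0.027, and 0.26, adjusted p = 0.0426. That test called 1.05% of all genes. Its 135 calls over all genes became 34 with the GC correction and 3, 0 and 0 in the limma fits to log2 FPKM. Whether the calls of ADAM10 and FURIN hold under the alternatives was not tested.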

How the data were processed

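The authors deposited a table of estimated counts per gene and a table of FPKM for the same 12 libraries; the submitters' processing notes list RSEM, HISAT2, StringTie 1.3.1, fastp 0.18.0 and Bowtie2 2.2.8 without roles. Genome build, annotation and use of strand: not given in the sources used here. Of the count values 10.7% to 12% per library were fractional and were rounded. Genes were tested with edgeR 4.0.16 (R 4.3.3) by the quasi-likelihood test, with filterByExpr, TMM factors and 4 group means over all 12 libraries. P-values were Benjamini-Hochberg adjusted over 12821 genes and called below 0.05; the biological coefficient of variation was 3.9%. The alternatives were DESeq2 1.42.0, limma 3.58.1 on log2(FPKM + 1) or log2(FPKM + 0.1), other filters and scalings, a GC correction, a replicate block and each library left out. Levels of different genes were compared in the deposited FPKM, differences in CPM computed from the counts. Ratios between genes restate the differences of the single genes and were not tested. Coordinates are GENCODE v29 (GRCh38), joined by gene ID. Genes, companion lists and tests were chosen with earlier results of these data known. Values per library are given for members called with an absolute log2 fold change of at least 0.5 and at least 1 CPM, and for the most abundant member of each family; other members shown that way were added after their values were seen. From a companion list at most 3 called genes per direction and comparison, with the smallest p, are named. The fitting step was tested on simulated data. Same-numbered libraries of different groups had correlations of -0.077 to 0.14 in 18 pairs, so the numbers were not taken as pairs.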

Additional observations from a re-analysis of the deposited data

Results flagged for a closer look

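Among the guidance genes 2 had a temozolomide response that differed between knockdown and control cells in edgeR's quasi-likelihood test of the difference itself, knockdown minus control. SEMA3C differed by -0.23 on the log2 scale (adjusted p = 0.0398), falling further in knockdown cells. PLXND1 differed by 0.25 (adjusted p = 0.0474), falling in control cells and not called in knockdown cells. With a GC correction the differences were -0.13 for SEMA3C (adjusted p = 0.277) and 0.11 for PLXND1 (adjusted p = 0.456), and neither passed. Over all 12821 genes 135 passed. No gap test for an outlying library was run within groups of 3; calls that rest on single libraries are given with each result.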

How the results depend on the processing

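The counts of called guidance genes for knockdown under temozolomide (25) and under DMSO (24) stayed within 1.5 times of these values under every alternative run. For temozolomide against DMSO the count in knockdown cells was 21, and 9 in each of the 3 limma fits to log2 FPKM, and in control cells it was 27, and 14, 14 and 13 in those fits. The other alternatives kept these counts within 1.5 times. The count for the difference between drug responses, 2, was 4 with DESeq2, 5 without a low-count filter, 4 with a replicate block, 0 in each limma fit and 0 with the GC correction, and 0 to 6 with single libraries left out. The cause was not tested. With the replicate block, which does not reflect a known pairing, the counts were 25 for knockdown under temozolomide, 23 under DMSO, 20 for temozolomide in knockdown cells and 27 in control cells; 6 of 12 libraries correlated best with a library of their own number. With library totals alone the counts, in the same order with the difference last, were 25, 22, 18, 23 and 2, and the median of all genes moved by up to 0.07. Among genes called in a comparison the direction changed only for EPHA4 under temozolomide, knockdown over control, which was -0.30 and became 0.00, 0.01 and 0.00 in the limma fits (adjusted p = 1, 0.99 and 1). Estimates of some uncalled genes crossed 0, such as SEMA4G for knockdown under DMSO (-0.04 to 0.87). Calls that held under every alternative numbered 17 of 25, 15 of 24, 7 of 21, 13 of 27 and 0 of 2 in that order. Depth limits the 15 untested genes, for which a floor of 3 counts is 0.12 to 0.215 CPM; this covers counting error only.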
